A study of Mus musculus with 4 samples.

Results

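The 10 genes described here are Tgfb1, Tgfbr1, Tgfbr2, Smad2, Smad3, Smad4, Smad6, Smad7, Ski and Skil, the core of the TGF-beta receptor and SMAD pathway. A Runx3-bound region (peak) was counted for a gene when its centre lay in the gene body or within 50 kb of either end, on the mouse assembly mm9 with GENCODE M1 genes. This rule gave 39 of the 15121 deposited peaks, none of them in 2 windows, and 9 of the 10 genes had at least 1 peak. The genes were named by pathway, not by their binding, but they were chosen with earlier results of these data known.

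Runx3 ChIP-seq was done on CD11chiMHCII+CD4+ conventional DC sorted from spleens of C57BL/6 mice, with 2 Runx3 immunoprecipitates and 2 samples of fragmented chromatin of whole cell extract (input) as control. The label of the second input gives the strain as C57BL/7. The label of each sample gives about 15 mice as the source of the cells, which were thus pooled, fixed in 1% formaldehyde and sonicated to DNA of about 300 bp, and reads were 50 bp long. The mice are not described as carrying any transgene or treatment, and the antibody was a polyclonal made in house. The authors called peaks in a single comparison of both Runx3 samples with both inputs, so no peak has a value per replicate and none of the values below has a spread between replicates. Each peak has a score written by the peak caller MACS2, in a unit that is not stated. Reads per sample were not analysed here, and a window without a peak is one in which no peak was called at this depth.

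TGF-beta is a secreted cytokine that binds the type II receptor Tgfbr2, which then recruits and phosphorylates the type I receptor Tgfbr1. Tgfbr1 phosphorylates the receptor SMADs Smad2 and Smad3, which join the common partner Smad4, enter the nucleus and bind DNA together with other transcription factors, the RUNX proteins among them. Smad6 and Smad7 inhibit the pathway at the receptors and SMADs, and Ski and Skil are co-repressors that bind the SMAD complex. In DC the pathway is known for restraining maturation and for its part in the development of epidermal Langerhans cells.

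The sequences that carry what follows were read from the mm9 genome. The first set is the 50 bases around the RUNX hexamer TGTGGT nearest to the centre in some of the peaks of Smad3, Ski, Skil, Tgfbr2 and Smad6. Each of these peaks lies inside the gene or has the gene's own TSS as its nearest protein-coding TSS. Not every such peak is printed, and that at the Ski promoter is among those left out. Capitals mark the hexamer, and each sequence is written 5′ to 3′ on the strand that reads TGTGGT.
Smad3, chr9:63569492-63569541, minus strand: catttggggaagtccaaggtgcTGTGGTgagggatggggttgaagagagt
Smad3, chr9:63574600-63574649, minus strand: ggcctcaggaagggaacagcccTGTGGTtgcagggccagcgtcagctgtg
Smad3, chr9:63586053-63586102, minus strand: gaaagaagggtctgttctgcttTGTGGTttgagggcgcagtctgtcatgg
Smad3, chr9:63588542-63588591, plus strand: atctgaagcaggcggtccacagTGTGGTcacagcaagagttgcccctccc
Ski, chr4:154574959-154575008, minus strand: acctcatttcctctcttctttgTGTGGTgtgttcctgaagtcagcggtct
Skil, chr3:30983047-30983096, plus strand: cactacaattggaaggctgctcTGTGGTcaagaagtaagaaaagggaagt
Tgfbr2, chr9:115986740-115986789, minus strand: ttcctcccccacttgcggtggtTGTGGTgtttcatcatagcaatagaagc
Tgfbr2, chr9:116103379-116103428, plus strand: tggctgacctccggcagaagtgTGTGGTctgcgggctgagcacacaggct
Smad6, chr9:63866615-63866664, minus strand: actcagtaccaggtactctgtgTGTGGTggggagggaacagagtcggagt
These are windows in introns of Smad3, Ski and Smad6, upstream of Skil and on either side of Tgfbr2. The hexamer of the Smad3 window chr9:63586053-63586102 has the SMAD pentamer CAGAC, read on the other strand, on each of its flanks, 2 copies within the 50 bases.

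The second set is the central 200 bases of the peaks with the highest score at Skil and Smad3 and of the peak at the Tgfbr1 promoter, shown because they are among the highest scores of these windows and hold no TGTGGT anywhere in the peak. They are written on the plus strand. Capitals mark TGCGGT, a variant of the RUNX hexamer, in the Skil sequence and TGANTCA, the motif of the AP-1 factors, in the Smad3 sequence, and the Tgfbr1 sequence holds neither.
Skil, chr3:30992613-30992812, upstream: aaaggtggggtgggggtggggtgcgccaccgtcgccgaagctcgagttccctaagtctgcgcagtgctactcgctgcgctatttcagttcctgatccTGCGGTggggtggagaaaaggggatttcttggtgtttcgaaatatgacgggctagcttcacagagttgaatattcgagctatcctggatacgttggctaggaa
Smad3, chr9:63580601-63580800, intron 1: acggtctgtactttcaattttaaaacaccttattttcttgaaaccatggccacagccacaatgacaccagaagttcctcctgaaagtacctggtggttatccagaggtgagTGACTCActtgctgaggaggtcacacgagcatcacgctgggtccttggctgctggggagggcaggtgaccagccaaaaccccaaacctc
Tgfbr1, chr4:47365784-47365983, upstream: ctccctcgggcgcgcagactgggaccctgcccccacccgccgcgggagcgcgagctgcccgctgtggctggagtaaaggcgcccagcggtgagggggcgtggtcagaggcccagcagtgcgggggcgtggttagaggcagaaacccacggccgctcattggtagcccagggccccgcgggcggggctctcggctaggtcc
Each of these 3 sequences holds CAGAC once.

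Across the 10 windows, which span 1604 kb, there were 2.43 peaks per 100 kb. The windows of all 22367 protein-coding genes together held 0.85 per 100 kb, and the sequenced bases of the chromosomes that carry peaks held 0.592. In the first of these a base covered by several windows counts once, so it is not the value of a typical gene. Gene by gene, 22.7 to 23.8% of protein-coding genes were at least as dense as Tgfbr1, Smad4, Ski and Smad3. For Tgfb1, Skil and Tgfbr2 the shares were 4.79, 6.29 and 11.4%, for Smad7 and Smad6 37.1 and 58.9%, and Smad2 had no peak. The members had a median of 4 peaks per gene, against 1 over all protein-coding genes. A window with at least 1 peak was found for 62.6% of protein-coding genes and 9 of the 10 members, and one with 4 or more peaks for 18.8% of genes and 7 members. The windows of all members were longer than the median gene's window of 115.4 kb. Among the 2237 genes with windows of like length to those of Tgfbr1, Smad4 and Ski, 21.2% had 4 or more peaks. The median count of genes with windows of like length was 2 for every member but Smad3, for which it was 1. These are descriptions of 1 peak list, and genes in a window share peaks with their neighbours.

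**Figure D1:**
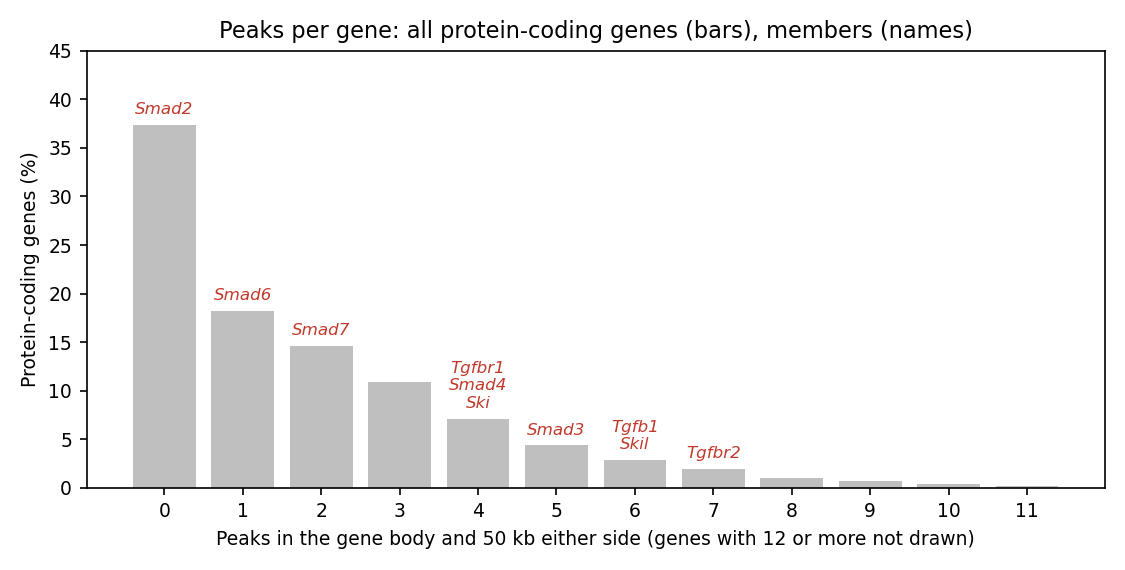
Share of protein-coding genes (percent, y axis) by the number of peaks in the gene body and 50 kb either side (x axis), as bars, with each member named above the bar of its own count. Smad2, Smad6 and Smad7 stand above the bars for 0, 1 and 2 peaks, and the other 7 members stand at 4 to 7 peaks, in the right tail.

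Of the 39 peaks, 13 lay in a member gene, 11 of them in introns and 2 in untranslated exons, and 26 lay outside, 17 upstream and 9 downstream. A peak centre in the gene body was found for 7 members, against 23.2% of protein-coding genes. All members are longer than the median gene, and this share was not taken among genes of like length, so the 2 values are not like for like. Centres no more than 1 kb from one of the gene's own TSS were found for 5 members (Tgfb1, Tgfbr1, Smad4, Ski and Skil), against 24.9% of genes. That share was likewise not taken among genes of like length or number of annotated TSS. Most peaks of the set were not at promoters: 12 of 39, or 30.8% (Wilson 95% interval 18.6 to 46.4), lay within 1 kb of any annotated TSS, against 38% of all peaks. The share beyond 10 kb from any TSS was 43.6% (29.3 to 59), against 34.6% of all peaks, and the median distance to a TSS was 8337 bp, against 3703 bp. All intervals on shares cover counting error only.

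For 26 of the 39 peaks the nearest TSS of a protein-coding gene was that of the member itself, and for 13 it belonged to 1 of 8 neighbours (2610002J02Rik, B9d2, Bckdha, Ccdc97, Cldn11, Col15a1, Elac1 and Prkci). At least 1 peak nearest to its own TSS was found for 9 members, against 35.4% of protein-coding genes. Genes of like window length or number of annotated TSS were not compared here, so these 2 values are not like for like. All peaks at Tgfbr2, Smad3, Smad6 and Smad7 were nearest to the member, while at Tgfb1 2 of 6 and at Tgfbr1 1 of 4 were. The list does not tell which gene a peak acts on.

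**Figure D2:**
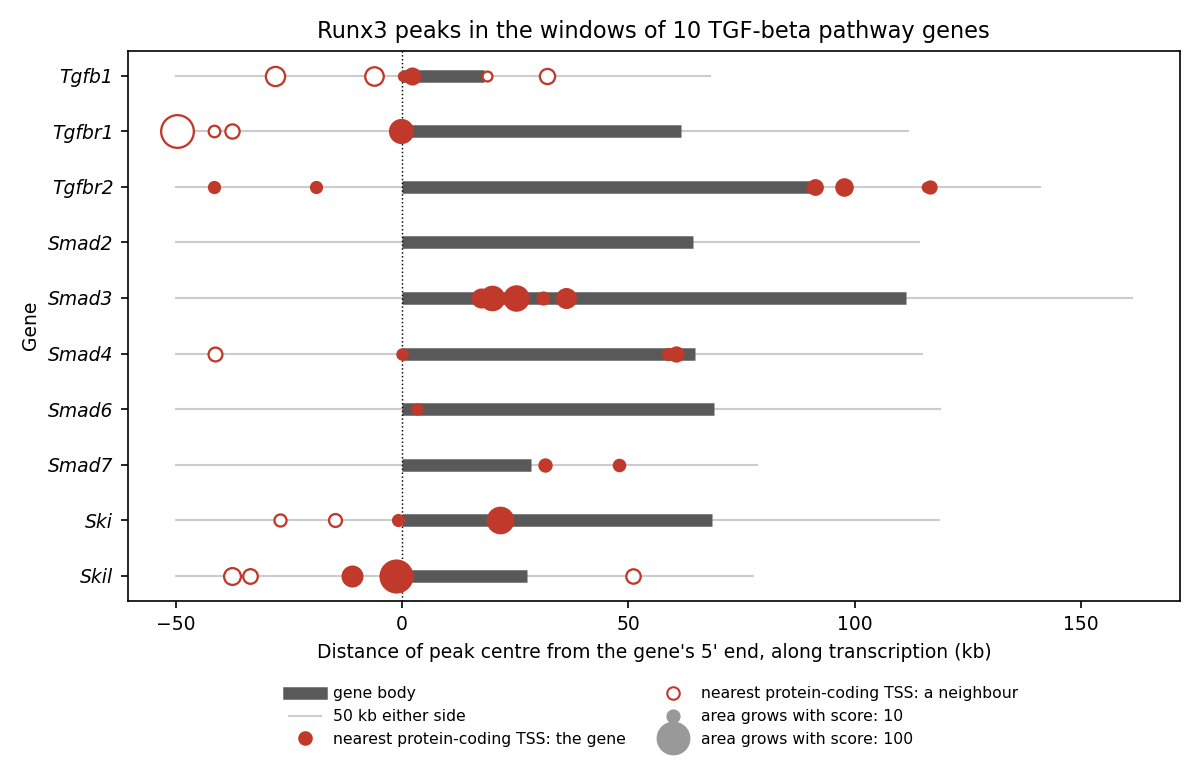
Position of each peak centre relative to the gene's 5′ end, in kb along the direction of transcription (x axis), for the 10 genes (rows). Thick bars are gene bodies, thin lines the 50 kb on either side, circle area grows with peak score, and open circles are peaks whose nearest protein-coding TSS is a neighbour's. The 5 Smad3 peaks cluster in the 5′ part of the gene, the Tgfbr2 peaks lie mainly beyond its 3′ end, and the highest peak in the Tgfbr1 window is an open circle 49.8 kb upstream.

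Scores of the 39 peaks ran from 3.17 to 106.5 with a median of 15.8, against a median of 12.14 over the whole list. For the 26 peaks nearest to a member's own TSS the median was 12.4, close to that of the list. For the 13 nearest to a neighbour's TSS it was 16.28. At or above the upper quartile of the list, a score of 23.19, were 12 peaks (30.8%, interval 18.6 to 46.4), against 25.4% of all peaks. These 12 peaks fell to 5 members, Tgfb1, Tgfbr1, Smad3, Ski and Skil, whereas 31.0% of protein-coding genes had such a peak in their window. Window length was not matched in that share. The highest score in each window gave the order Tgfbr1 (106.52), Skil (100.57), Ski (62.2), Smad3 (55.82), Tgfb1 (33.24), Tgfbr2 (22.33), Smad4 (14.96), Smad7 (9.84) and Smad6 (4.79). Without values per replicate it cannot be said which neighbours in this order differ. In the same sense 1.43% of protein-coding genes had a peak as high as the best of Tgfbr1, and 1.93% one as high as the best of Skil. Counting only peaks nearest to the member's own TSS lowers Tgfbr1 to 49.38 and Tgfb1 to 20.62 and leaves the other 7 genes as they are.

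**Figure D3:**
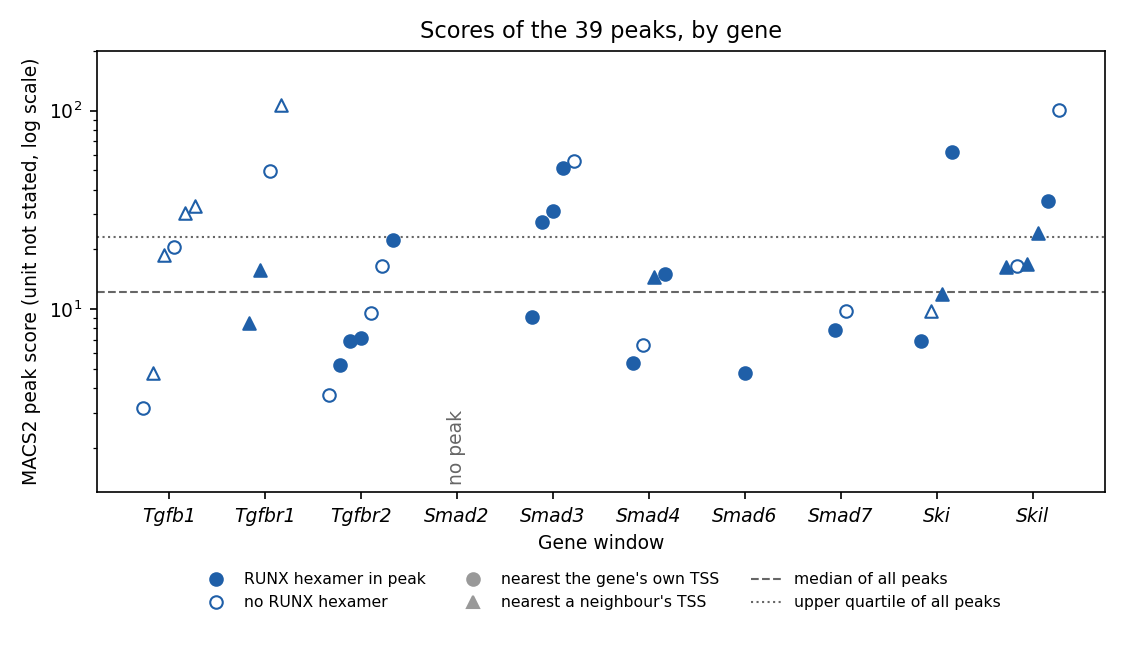
Score of every peak (y axis, log scale, unit not stated) in each gene's window (x axis). Filled symbols hold the RUNX hexamer, circles are nearest to the gene's own TSS and triangles to a neighbour's, and the lines mark the median (12.14) and upper quartile (23.19) of all peaks. All 6 Skil peaks lie above the median line, all 6 Tgfb1 peaks are open symbols, and the highest peaks at Tgfbr1, Smad3 and Skil are open too.

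Tgfb1, the ligand (chr7:26472021-26490096, plus strand), had 6 peaks in its window, a count reached by 7.31% of protein-coding genes. Inside the gene a peak of score 3.17 lay in the 5′ untranslated part of exon 1 (chr7:26472160-26472431), 274 bp downstream of the TSS. A higher peak, with a score of 20.62, lay in intron 1 (chr7:26474101-26474497), 353 bp from the start of a shorter annotated transcript. The 2 highest peaks of this window were nearest to neighbours, that of 33.24 at 191 bp upstream of Bckdha and that of 30.41 at 388 bp upstream of B9d2. A peak of 18.82 lay 45 bp from the TSS of Ccdc97. The remaining peak, 755 bp past the 3′ end of Tgfb1, had a score of 4.79. None of the 6 held TGTGGT and 1, at Ccdc97, held TGCGGT. Tgfb1 thus had peaks at its own promoter and intron, the lower one at the promoter, and 3 of the other 4 peaks of the window lay within 1 kb of a neighbour's TSS.

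Tgfbr1, the type I receptor kinase, lies at chr4:47366094-47427803 on the plus strand and had no peak inside the gene. A peak of score 49.38 lay 210 bp upstream of its TSS (chr4:47365643-47366126), in DNA with a GC content of 71.5%. This is the promoter peak whose central bases are given above, and it holds neither RUNX hexamer. The other 3 peaks were 37665 to 49750 bp upstream and nearest to Col15a1, a gene for a basement membrane collagen. The highest of them (106.52, chr4:47316009-47316679) lay 250 bp from the TSS of Col15a1 and only just inside the 50 kb limit, at 49750 bp from Tgfbr1. The other 2 had scores of 8.49 and 15.8, and both held TGTGGT, at 26 and 10 bp from the centre.

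Tgfbr2, the type II receptor that binds the ligand, lies at chr9:115993415-116084383 on the minus strand and had 7 peaks, the most of the 10 genes. All 7 had Tgfbr2 as the nearest protein-coding TSS, and the nearest centre was 18972 bp from it. The upstream peaks had scores of 6.94 (18972 bp) and 7.2 (41606 bp). The other 5 peaks lay at or beyond the 3′ end. Of these, the peak in the 3′ untranslated part of exon 8 had a score of 5.26, and its neighbour centred 182 bp past the gene's end had 16.53. The highest of the window, 22.33, lay 6729 bp past the end (chr9:115986430-115986943), and the remaining 2 (9.62 and 3.68) lay inside the neighbouring gene. Peaks at this receptor gene were thus many but below the upper quartile in score, and 4 of the 7 held TGTGGT. A pseudogene, Gm9385, has a TSS nearer to the 5 peaks of the 3′ side than that of Tgfbr2, at 17582 to 43564 bp.

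Smad2 and Smad3, the receptor SMADs, differed in their peaks. Smad2 (chr18:76401234-76465385) had no peak in its window, and the nearest peak in the list lay 473 kb from the gene with a score of 14.96. Smad3 (chr9:63494574-63605801, minus strand) had 5 peaks, all of them in intron 1 and within 19.4 kb, from 17.3 to 36.3 kb downstream of the gene's 5′ end. No peak lay within 50 kb outside the gene, and the nearest one beyond was 146654 bp away. Widening the window to 100 kb on each side left Smad2 at 0 peaks and Smad3 at 5.

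Along Smad3 in the direction of transcription the peaks had scores of 27.51 (chr9:63588189-63588728), 51.5 (chr9:63585366-63586317), 55.82 (chr9:63580350-63581053), 9.16 (chr9:63574449-63574701) and 31.34 (chr9:63569307-63569715). All but the 9.16 peak were above the upper quartile of the list, more than at any other member. They were not at annotated starts: the nearest TSS, those of shorter Smad3 transcripts, were 2614 to 14799 bp away. TGTGGT was present in 4 of the 5, with 6 copies in all, and lay 6 bp from the centre of the 31.34 peak but 236 bp from the centre of the 51.5 peak. The 55.82 peak had no RUNX hexamer and held 1 AP-1 motif. AP-1 motifs were also found once in the 51.5 and 27.51 peaks.

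Smad4, the common SMAD partner, lies at chr18:73798663-73863434 on the minus strand and had 4 peaks with scores of 5.36 to 14.96. The promoter peak, centred 104 bp upstream of the TSS (chr18:73863412-73863665), was the lowest of them at 5.36 and held TGTGGT 72 bp from its centre. In intron 10 there were 2 peaks, of 14.96 with 2 hexamers and of 6.57 with none. The peak of 14.58, 41221 bp upstream, was nearest to Elac1. At the common SMAD binding was therefore called at the promoter and near the 3′ end, with no peak above the upper quartile.

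Among the members with any peak, the inhibitory SMADs had the fewest peaks and the lowest values for the highest peak of a gene. Smad6 (chr9:63800953-63869866, minus strand) had a single peak of 4.79 in intron 1 (chr9:63866418-63866788), 3263 bp from the gene's 5′ end, with TGTGGT 36 bp from its centre. Smad7 (chr18:75527183-75555589, plus strand) had 2, both downstream, of 9.84 at 3074 bp and 7.84 at 19553 bp past the 3′ end, and the second of these held TGTGGT. No peak lay in the Smad7 gene or at its promoter. All 3 peaks were below the list median, and 62.6% and 44.3% of protein-coding genes had as many peaks as Smad6 and Smad7. Smad6 and Smad3 are neighbours on chromosome 9, but their windows shared no peak.

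The co-repressors had some of the highest scores. Ski (chr4:154528184-154596701, minus strand) had a peak of 62.2 in intron 1 (chr4:154574743-154575565), 21547 bp from the gene's 5′ end, with 3 copies of TGTGGT, the most of any peak of the set, and 6 of CAGAC. This peak was 823 bp wide, against a median of 423 bp for the set, and its nearest TGTGGT lay 170 bp from the centre. By score it ranked 631 of 15121. The Ski promoter peak, 921 bp upstream, was low in comparison at 6.94, and 2 further peaks (11.96 and 9.84) were nearest to 2610002J02Rik.

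Skil (chr3:30993980-31021499, plus strand) had 6 peaks, all above the list median. The highest, 100.57 (chr3:30992402-30993024), lay 1267 bp upstream of the TSS and ranked 153 of 15121. A further peak of 35.17 lay 11018 bp upstream (chr3:30982709-30983216), and the peak in intron 1 had a score of 16.53. The other 3, of 24.06, 16.86 and 16.28, were nearest to Prkci, a protein kinase C gene, or to Cldn11, a claudin gene. The highest score at Skil was thus just upstream of the gene, whereas at Ski it was in intron 1.

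TGTGGT was found in 22 of the 39 peaks (56.4%, interval 41 to 70.7), against 54% of the whole list. With TGCGGT included the shares were 66.7% and 66.5%. The members' peaks were thus close to the list in their RUNX hexamers. In 17 of 39 peaks (43.6%) the hexamer lay in the central 200 bp, against 41.8% of all peaks, and the median distance from hexamer to centre was 48.8 and 45.5 bp. At least 2 copies were found in 4 peaks (10.3%, interval 4.06 to 23.6), against 18.5%.

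The hexamer shares were also read separately near and away from a TSS. Within 1 kb of a TSS 3 of 12 member peaks held it (25%, interval 8.89 to 53.2), against 34.4% of such peaks of the list, and beyond 1 kb 19 of 27 did (70.4%, interval 51.5 to 84.1), against 66.1%. Of the 12 member peaks at or above the upper quartile of score, 6 held TGTGGT (50%, interval 25.4 to 74.6), against 65% of such peaks of the list. The interval includes that value. In the central 200 bp, 2 of these 12 held it (16.7%, interval 4.7 to 44.8), against 47.1% of such peaks of the list. Over the whole peak the AP-1 motif TGANTCA was present in 5 of the 12 (41.7%, interval 19.3 to 68), against 16.9%. These 5 include the Smad3 peaks of 55.82, 51.5 and 27.51. In the central 200 bp AP-1 was present in 2 of the 12 (16.7%, interval 4.7 to 44.8), against 7.5%, a value inside the interval. The 12 peaks had a median width of 647 bp, against 550 bp for such peaks of the list. The intervals for TGTGGT in the central 200 bp and for AP-1 over the whole peak exclude the value of the list. They come from many motifs and subsets looked at and were not tested. The 6 peaks without TGTGGT were the peaks of 106.52 and 49.38 in the Tgfbr1 window, of 100.57 at Skil, of 55.82 at Smad3 and of 33.24 and 30.41 in the Tgfb1 window.

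The SMAD pentamer CAGAC was present in 29 peaks (74.4%, interval 58.9 to 85.4), against 64.4% of all peaks, and in the central 200 bp of 23 (59%, interval 43.4 to 72.9), against 39.4%, a value outside the interval that was not tested. So short a motif is common in any sequence of this length. Peaks with both TGTGGT and CAGAC made up 38.5% of the set (interval 24.9 to 54.1) and 36.7% of the list. The merged sequence TGTGGTCTG, in which the hexamer runs into a pentamer on the other strand and shares 2 bases with it, was looked for after it had been seen in the sequences above. It was found in 2 of the 39 peaks, at Tgfbr2 (chr9:116103218-116103492) and Smad3 (chr9:63574449-63574701), and in 2.2% of all peaks.

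AP-1 motifs (TGANTCA) were found in 20.5% of member peaks (interval 10.8 to 35.5) and 13.2% of all peaks. The ETS core GAGGAA was found in 64.1% (48.4 to 77.3) and 53.6%, and TGACGT, the hexamer of the DC factor zDC, in 12.8% (5.6 to 26.7) and 11%. For these 6 motifs over the whole peak, each interval of the member peaks includes the value of the whole list. Letters in a peak are not evidence of a bound site, and their absence says only that they are not in this window.

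**Figure D4:**
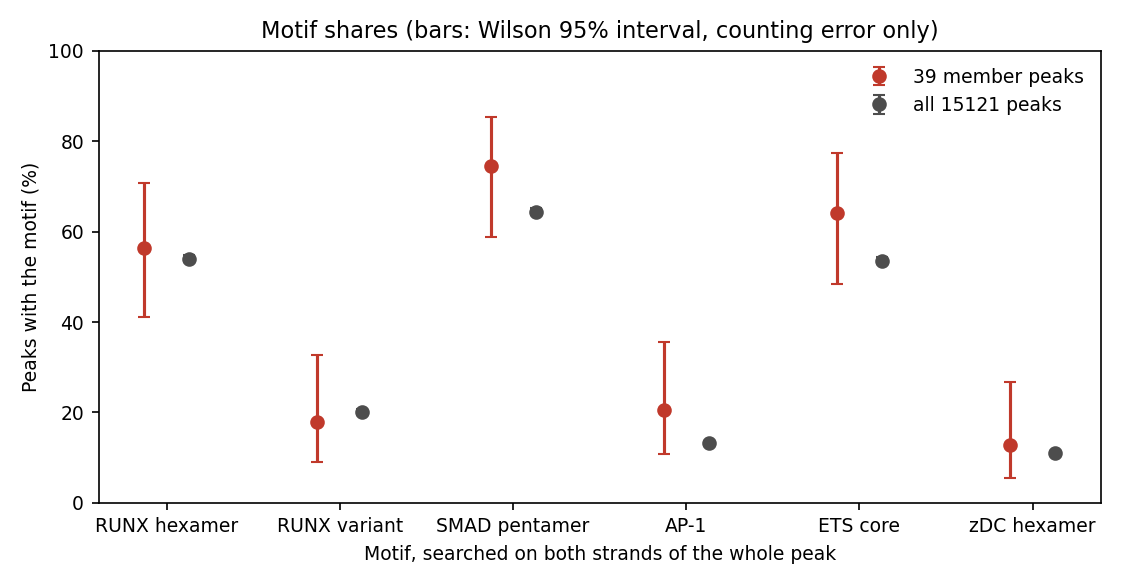
Share of peaks that hold each motif on either strand (percent, y axis) for 6 motifs (x axis), in the 39 member peaks (red) and in all 15121 peaks (grey). Points are shares and bars Wilson 95% intervals, which for the whole list are hardly wider than the point. The red intervals all include the grey values.

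The window limit decided some values. Between 40 and 60 kb from a member 4 peaks were counted, those of 106.52 and 8.49 near Tgfbr1, of 7.2 near Tgfbr2 and of 14.58 near Smad4. Another 3 were not, of 33.24 and 72.74 at 50032 and 51119 bp from Tgfb1 and of 7.84 at 59714 bp from Smad7. With the gene body alone Tgfb1 had 2 peaks, Tgfbr2 1, Smad3 5, Smad4 2, Smad6 1, Ski 1 and Skil 1, and the other 3 genes had none. Smad3 and Smad6 were the genes whose counts were the same, 5 and 1, from the gene body to 100 kb, as was Smad2 at 0.

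Other genes of the pathway, 50 in number, were examined by the same rule, from extracellular ligands, their binding proteins and receptors to SMAD ubiquitin ligases, nuclear partners and known targets. All 50 were matched in the annotation (Nrros as Lrrc33), and 34 (68%) had at least 1 peak, against 62.6% of protein-coding genes. Their median was 1 peak per gene, as over all genes, and 15 (30%) had a peak at or above the upper quartile of score, against 31.0% of protein-coding genes. Other shares were higher in value than those of all protein-coding genes: 13 (26%) had 4 or more peaks, against 18.8%. A peak within 1 kb of their own TSS was found for 15 (30%), against 24.9%. A peak nearest to their own TSS was found for 23 (46%), against 35.4%. The shares of these 50 genes were given no interval and were not tested, so no excess is read from them. The 107 distinct peaks of the 50 genes had a median score of 13.1.

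No peak was called for 16 of the 50. Among these were the ligands Tgfb2, Inhba, Inhbb, Bmp2, Bmp4 and Gdf11, the receptors Acvr1, Acvr2a, Bmpr1a and Bmpr1b, the SMAD anchor Zfyve9, the matrix and activation genes Ltbp1, Itgb6 and Thbs1, and the target gene Id1. Most peaks were found for the activin receptor Acvr1b with 11, for Nrros, which tethers latent TGF-beta on myeloid cells, with 9, and for the ubiquitin ligase Nedd4l with 8. None of the 11 peaks of the Acvr1b window was nearest to Acvr1b itself, and the highest, 91.88, was nearest to Nr4a1, at 20321 bp. All 8 at Nedd4l were nearest to Nedd4l, and the highest, 68.13, lay 68 bp upstream of a TSS of that gene. The window of Furin, whose protease cleaves the TGF-beta precursor, held a peak of 72.15 that was nearest to Fes, at 1278 bp.

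**Figure D5:**
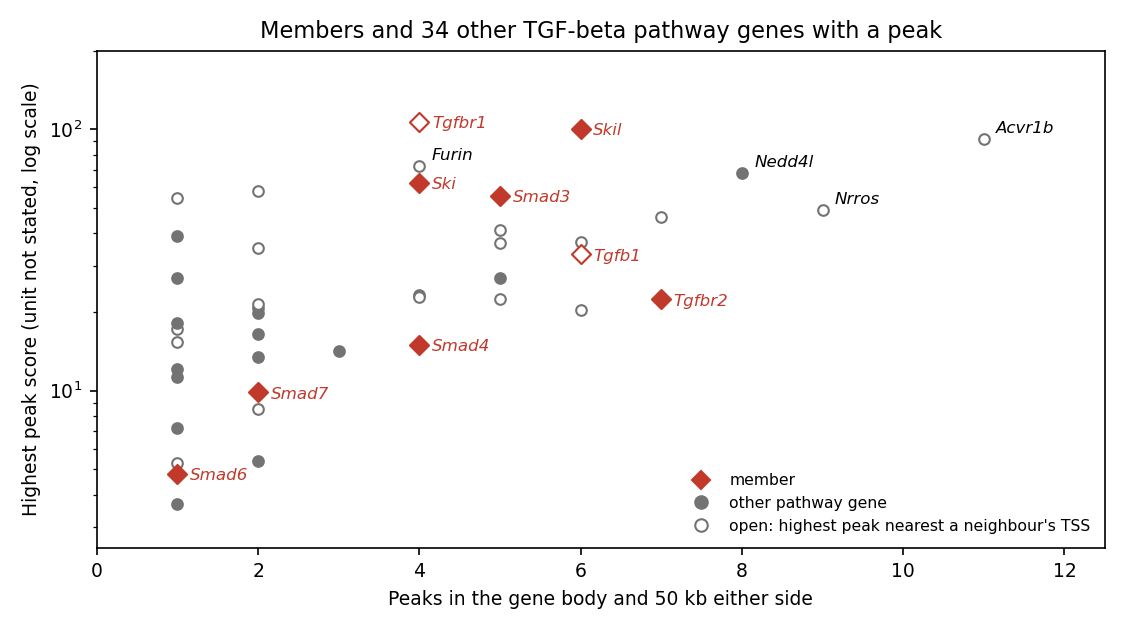
Number of peaks in the window (x axis) against the highest peak score in it (y axis, log scale, unit not stated) for the 9 members with a peak (red diamonds, named) and the 34 other pathway genes with a peak (grey circles). Open symbols are genes whose highest peak is nearest to a neighbour's TSS. Tgfbr1 (106.52) and Skil (100.57) have higher best scores than any of the other pathway genes, of which Acvr1b has the highest (91.88) and most peaks (11). The peaks of Acvr1b and the 106.52 peak of Tgfbr1, which is nearest to Col15a1, are assigned by distance alone. The best peak nearest to Tgfbr1 itself is 49.38, below the 68.13 at Nedd4l.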

How the data were processed

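Runx3-bound regions of splenic CD4+ DC were analysed from the single deposited peak list. The authors aligned reads uniquely to mm9 with bowtie and called peaks with MACS2 on both Runx3 samples against both inputs, and the labels also name CASAVA 1.8; the versions of bowtie and MACS2, the threshold and the handling of duplicate reads are not given in the sources used here. The list holds the start, end and score of each peak, and the deposited score is in a unit that the authors do not state. Scores were compared only within the list. Because replicates were pooled, no test was made, and all values are descriptions.

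Positions were counted from 1. Genes and TSS came from GENCODE M1 and sequences from NCBIM37, the same assembly as mm9, and no peak ran past a chromosome end. The centre of a peak set its place, with intron and exon numbers from each gene's longest protein-coding transcript. The motif search covered both strands over the full width of a peak. Genes with windows of like length are those in the same of 10 equal groups by window length. Every member is named, with neighbours only where a peak lay nearer to their TSS. Of the wider pathway list, the genes without a peak, the 3 with most peaks and the 3 with the highest score are named, except where a result is not reported here. The members and lists were chosen with earlier results of these data known. Sequences on chromosome 18 are not printed. Alternatives were other distances, score limits, joined peaks (gap of 300 bp), any overlap in place of the centre and other sets of TSS. Window counting and motif search were tested on simulated data. Python 3.11.15, numpy 2.4.6, scipy 1.17.1 and matplotlib 3.10.9 were used.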

Additional observations from a re-analysis of the deposited data

How the results depend on the processing

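The count of 39 peaks fell to 13 with the gene body alone, to 22 with 10 kb around the gene and to 22 and 12 when only peaks at or above the median or the upper quartile of score were kept. Under the last limit 5 members had a peak. Under these 2 score limits, which by construction keep fewer and higher peaks, the median score was 25.8 and 42.3 and the density 1.37 and 0.748 peaks per 100 kb. In the other 42 recomputed values, counts, medians and densities stayed within 1.5 times and shares within the 95% interval. Peaks whose nearest protein-coding TSS was the member's own numbered 26, at the edge of this limit. Their median score was 12.4, against 12.14 over the whole list. No paired analysis was possible because the list is a single call on pooled samples, and for the same reason no sample could be left out. The study states its total aligned reads, but reads per sample were not analysed here, and the calling threshold and score unit are not stated, so low scores such as those at Smad6, Smad7 and the Tgfb1 promoter rest on the caller's own threshold.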
